A study of Mus musculus with 13 samples.

Results

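The cells described here are macrophages of the embryonic mouse back skin, picked out of single-cell RNA sequencing libraries by their transcripts. Cells were taken from the E14.5 and E16.5 libraries if they had 600 to 4800 detected genes and at most 10% mitochondrial transcripts. A cell was counted as a macrophage if at least 4 of the 6 genes C1qa, C1qb, C1qc, Csf1r, Tyrobp and Fcer1g were detected and the 6 together made up at least 10 transcripts (unique molecular identifiers, UMIs) per 10000. The members were thus chosen by the measured levels of these 6 genes. This gave 1809 macrophages among 51655 kept embryonic cells, and among 86507 kept cells of the whole series, which also holds newborn epidermis kept at 900 to 7700 genes. Levels of the 6 genes are therefore given only as a description. The 8 libraries were 2 wild-type (WT) and 2 Grhl3-/- C57BL/6 embryos at each of E14.5 and E16.5. Grhl3 encodes a transcription factor of the surface epithelium that the skin barrier needs, and, per the study's methods, all Grhl3-/- embryos had spina bifida and their skin was taken anterior to the lesion. The methods also state that the embryos of an age were littermates from a single pregnancy, so age and litter cannot be told apart.

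Skin macrophages of the embryo come from yolk sac and fetal liver precursors and settle in the dermis before birth. Their surface carries the colony-stimulating factor 1 receptor Csf1r, on which their survival depends, and they secrete C1q, the recognition protein of the classical complement pathway. A macrophage type found along vessels carries scavenger and endocytic receptors such as Mrc1 (the mannose receptor CD206), Cd163 (which takes up haemoglobin bound to haptoglobin), Lyve1 and Folr2. Macrophages with a more microglia-like profile carry Cx3cr1 and Trem2, while cells newly derived from monocytes carry Ccr2 and Plac8. The whole thickness of the skin was dissociated, so the position of these cells in the dermis was not measured.

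All 6 genes of the rule were present in every library, with C1qb at 3279 to 3634 UMIs per 1000000 macrophage UMIs (CPM) at E14.5 and 3516 to 4352 at E16.5, and Csf1r at 611 to 711 and 449 to 887. Cd207, which defines Langerhans cells of the epidermis, had no UMI in any of the 8 libraries. At the limit of 10 per 10000, the lowest member per library lay between 10.0 and 13.1, and the highest excluded cell with at least 4 of the genes between 5.85 and 9.89. Median depth was 8147 to 12444 UMIs per macrophage, and the macrophage UMIs summed per library were 1672237 to 3669017. Across the 28 pairs of libraries 32 to 96 kept barcodes were shared, and 3 of the shared barcodes were macrophages in both libraries. Grhl3, the targeted gene, had 0 to 3 UMIs per library in macrophages. In the other skin cells it had 219 and 431 UMIs in the WT and 216 and 668 in the Grhl3-/- libraries at E14.5, against 283 and 382 in WT and 76 and 38 in Grhl3-/- at E16.5. The files do not say whether the counted 3′ end lies in the deleted part, so these counts check the genotype labels only in part. Nor are they scaled to the epithelial RNA of a library. At E14.5 the other skin cells held 16.7 and 20.3 UMIs of 15 keratinocyte genes per 10000 in WT and 21.2 and 52.7 in Grhl3-/-. At E16.5 they held 110 and 210 in WT and 62.5 and 35.1 in Grhl3-/-. The part of epithelial content in the Grhl3 counts was not tested. The Y-linked Ddx3y had 85 to 117 macrophage UMIs in 4 libraries (WT 1 and both Grhl3-/- at E14.5, Grhl3-/- 1 at E16.5) and 0 in the other 4, so both E16.5 WT libraries and only 1 of the E16.5 Grhl3-/- libraries came from skin without Y-linked transcripts. Sex is thus in part confounded with genotype at both ages, and with age, since 3 of the E14.5 but 1 of the E16.5 libraries had Y-linked transcripts. This differs from the study's methods, which state a male and a female embryo for each genotype and age. At E14.5 neither the unscaled Grhl3 counts nor the sexes therefore bear out the genotype labels, and the groups are named below as the libraries were labelled.

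The share of macrophages among kept cells was between 2.65% and 3.72% in 6 libraries and near 5% in the E16.5 Grhl3-/- embryos. At E14.5 it was 3.72% and 2.76% in WT and 3.41% and 2.65% in Grhl3-/- skin, and at E16.5 it was 3.02% and 2.86% in WT and 4.79% and 5.24% in Grhl3-/- skin. The exact 95% intervals, which cover counting error only, were 2.67 to 3.40% and 2.48 to 3.29% for the E16.5 WT libraries and 4.23 to 5.39% and 4.71 to 5.81% for the E16.5 Grhl3-/- libraries. The E16.5 Grhl3-/- libraries therefore lay above the other 6, with means of 5.01% ± 0.318 against 2.94% ± 0.111 in WT (SD, n = 2), whereas at E14.5 the genotypes overlapped. Over both ages the genotypes differed 1.26-fold (exact permutation test within ages, two-sided p = 0.278, the smallest possible being 0.0556), and E16.5 against E14.5 differed 1.24-fold (exact permutation test, n = 4 per age, p = 0.286). A share of kept cells cannot tell more macrophages from fewer other cells, and the number of cells per area of skin was not measured.

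**Figure D1:**
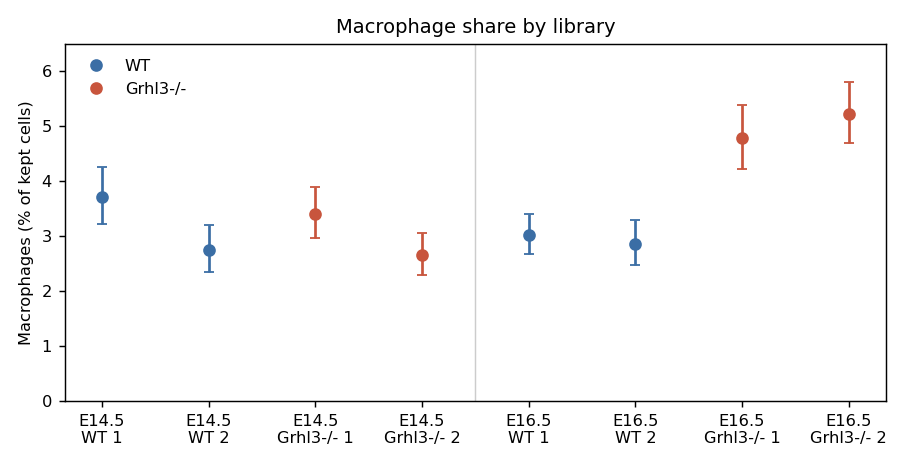
Macrophage share of kept cells (%) in each of the 8 embryonic libraries, with points for libraries (blue WT, red Grhl3-/-) and exact 95% intervals as bars. The 2 E16.5 Grhl3-/- libraries sit at 4.79% and 5.24%, above the other 6, which lie between 2.65% and 3.72%.

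The macrophages differed among themselves. Clustering of the 1809 cells gave 13 groups of 17 to 235 cells, whose leading genes are descriptions since the same genes formed the groups. Cluster 1 led with the heat shock gene Hspa1a (289 against 95.4 CPM in the other macrophages), then Egfl7, Nrp2, Abca1 and Lpl. Cluster 2 led with Rgs1, Clec12a and Ccr2. Cluster 3 led with Mgl2, Cd163 and Clec10a but also with the epidermal genes Lor, Asprv1, Calm4, Hrnr and Sbsn. Cluster 4 led with Mt2, Fcna, Cbr2, Lyve1 and Cd163 together with the muscle genes Acta1, Tnnc2, Myl1 and Mylpf. Clusters 5, 7 and 9 carried all 10 markers of dividing cells, and cluster 11 had Tmem119, best known from microglia, and Cxcl16 among its leading genes. Cluster 8 (126 cells) carried 3 of the 5 monocyte markers and led with Plac8, Hp, Thbs1, Ms4a4c and Napsa, and is called monocyte-like. Cd74 was also among its leading genes (1860 against 126 CPM in the other macrophages). Its 7 markers of dendritic or Langerhans cells summed to 589 against 32.2 CPM. Cluster 9 (80 cells) led with Prtn3, Napsa, Plac8, Ccr2 and Clec12a, and with 2 of the 5 monocyte markers it stays unnamed. Clusters 6, 10, 12 and 13 led with genes of fibroblasts, red cells, keratinocytes and mast cells on top of all 5 macrophage markers. Results without these 4 clusters are given among the alternatives, in which clusters 3 and 4 stay. The 4 were picked for having at least 5 of their 10 leading genes on lists of RNA of other cells. The epidermal leading genes of cluster 3 are not all on those lists. Passing this alternative therefore does not clear a call of the RNA of other cells in clusters 3 and 4. The number of cells per cluster is not tested between groups, because the genes that form the clusters differ between them, but the groups' cells lay in different clusters. Cluster 1 held 24.5 to 40.4% of macrophages in the E14.5 libraries and at most 0.385% at E16.5. Cluster 3 held 45.2 and 47.1% in the E16.5 WT libraries, 1.15 and 1.76% in Grhl3-/- and none at E14.5. Cluster 4 held 1.14 and 4.19% in the E16.5 WT libraries and 37.3 and 29.7% in Grhl3-/-. The differences below are over all macrophages of a library and so hold these cluster differences as well.

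Between E14.5 and E16.5 several transcripts of the perivascular resident type rose in macrophages. Of 10034 genes tested over the 8 libraries (edgeR quasi-likelihood test on summed UMIs, Benjamini-Hochberg adjusted p under 0.05), 7.15% were higher at E16.5 (717 genes) and 5.76% were lower (578 genes), while DESeq2 called 361 higher and 189 lower. Of 19 tested genes of the perivascular-type resident list, 9 were higher and 1, Timd4, was lower, with a median difference of 0.31 on the log2 scale against -0.01 over all genes. Values of single genes below are given for WT 1, WT 2, Grhl3-/- 1 and Grhl3-/- 2 in that order. Cd163 (chromosome 6, 124304656 to 124330527, GRCm38) stood at 17.4, 16.3, 9.64 and 15.4 CPM at E14.5 and at 166, 150, 115 and 88.9 CPM at E16.5, so that every E16.5 library was above every E14.5 library. Its difference was 3.18 ± 0.13 (log2, SE; edgeR adjusted p = 2.2e-10). Pf4, the platelet factor 4 chemokine, went from 4186, 4539, 4294 and 3866 CPM to 10534, 10577, 8483 and 6388 CPM (1.13 ± 0.08). F13a1, the coagulation factor XIII subunit that such macrophages secrete, went from 951, 1195, 975 and 956 CPM to 1913, 1923, 1855 and 1640 CPM (0.91 ± 0.07). The ages did not overlap for Pf4 or F13a1 either. Cbr2, a carbonyl reductase, rose from 7.45 to 9.40 CPM up to 46.0 to 70.6 CPM (2.87 ± 0.18), and smaller rises were measured for Mrc1 (0.41 ± 0.08), Maf (0.36), Fcgrt (0.40) and Blvrb (0.31). Among Grhl3-/- libraries alone Mrc1 (0.31, edgeR adjusted p = 0.12), Maf (0.28, 0.22) and Blvrb (0.079, 0.79) did not pass, and leaving out single libraries also ended the calls for Maf (E14.5 Grhl3-/- 2, E16.5 WT 1 or E16.5 Grhl3-/- 1, adjusted p at most 0.057) and Blvrb (E14.5 or E16.5 Grhl3-/- 1, at most 0.091). The Blvrb call was also lost with libraries thinned to the smallest. Lyve1 and Folr2 did not follow: Lyve1 had 694 to 1337 CPM at E14.5 and 676 to 1245 CPM at E16.5 (-0.05 ± 0.23, edgeR adjusted p = 0.92), and Folr2 had 328 to 412 and 354 to 466 CPM (0.20 ± 0.09, edgeR adjusted p = 0.18).

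Receptors of uptake shifted in both directions. Of 39 phagocytic and scavenger receptor genes tested, 8 were higher and 8 lower at E16.5, beside 7.15% higher and 5.76% lower over all genes. Fcgr2b, the inhibitory Fc receptor, rose from 80.5, 59.2, 56.0 and 64.4 CPM to 144, 225, 186 and 233 CPM (1.65 ± 0.19). The C-type lectins Clec10a (1.05 ± 0.09) and Mgl2 (1.37 ± 0.17), which bind terminal galactose sugars, rose as well. Mgl2 had 100 and 115 CPM in the E16.5 WT libraries and 73.3 and 42.0 CPM in Grhl3-/-, and among Grhl3-/- libraries alone its rise of 0.78 did not pass (edgeR adjusted p = 0.11). Clec12a, an inhibitory lectin of myeloid cells, fell from 44.3, 54.0, 43.2 and 47.6 CPM to 18.1, 8.37, 19.6 and 19.9 CPM (-1.45 ± 0.16). The fatty acid scavenger Cd36 fell by 0.91 ± 0.14, the lipid droplet coat Plin2 by 0.88 ± 0.10 and the cholesterol exporter Abca1 by 0.60 ± 0.10 on the log2 scale. Among WT libraries alone Cd36 (-0.68, edgeR adjusted p = 0.0503) and Abca1 (-0.32, 0.17) did not pass. In the lipid handling list 6 of 30 genes were lower and 3 higher, the latter near the share over all genes.

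Genes of antigen presentation, of the interferon response, of complement and of the matrix rose more often than they fell. Over all genes 7.15% were higher at E16.5 and 5.76% lower. In antigen presentation 8 of 18 genes were higher and none lower, with a median of 0.52. These 8 belong to class I presentation except Cd40, and H2-K1, a class I heavy chain, went from 146, 139, 123 and 146 CPM to 262, 364, 192 and 216 CPM (0.92 ± 0.10), followed by H2-D1 (0.80 ± 0.08) and B2m (0.45, but 0.27 with edgeR adjusted p = 0.18 among Grhl3-/- libraries alone). The class II genes did not pass, with H2-Aa at 7.16 to 29.9 CPM at E14.5 and 4.78 to 52.9 CPM at E16.5. Cd74, at 0.58 ± 0.22 (edgeR adjusted p = 0.17), did pass with the looser gate (0.74, 0.028), with DESeq2 (0.57, 0.013), without the low-count filter (0.57, 0.0061) and without E16.5 Grhl3-/- library 1 (0.75, 8.1e-05). Of 38 interferon response genes 9 were higher and none lower, among them Ifitm2 (0.92 ± 0.08) and the 2-5A synthetase relative Oasl2 (1.5 ± 0.22). Oasl2 rose in WT, from 7.61 and 3.26 CPM to 32.8 and 34.7 CPM, while the Grhl3-/- libraries went from 12.4 and 19.6 CPM to 22.6 and 16.4 CPM and did not pass on their own (0.35, edgeR adjusted p = 0.60). Of 19 complement genes 7 were higher, but 3 of them, C1qa, C1qb and C1qc, belong to the selection rule and count only as a description. Of 29 matrix genes 11 were higher and 2 lower, with Tgfbi, an adhesion protein of the matrix, at 168, 132, 178 and 140 CPM and then 275, 283, 324 and 365 CPM (1.06 ± 0.10) and Fn1, fibronectin, at 0.84 ± 0.17. The Fn1 call was lost with the looser gate (edgeR adjusted p = 0.059), among WT libraries alone (0.099) and without members with monocyte markers (0.35). Il18, a cytokine released after inflammasome cleavage, rose by 1.02 ± 0.10 with no overlap between ages (76.7 to 101 CPM and 152 to 204 CPM).

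**Figure D2:**
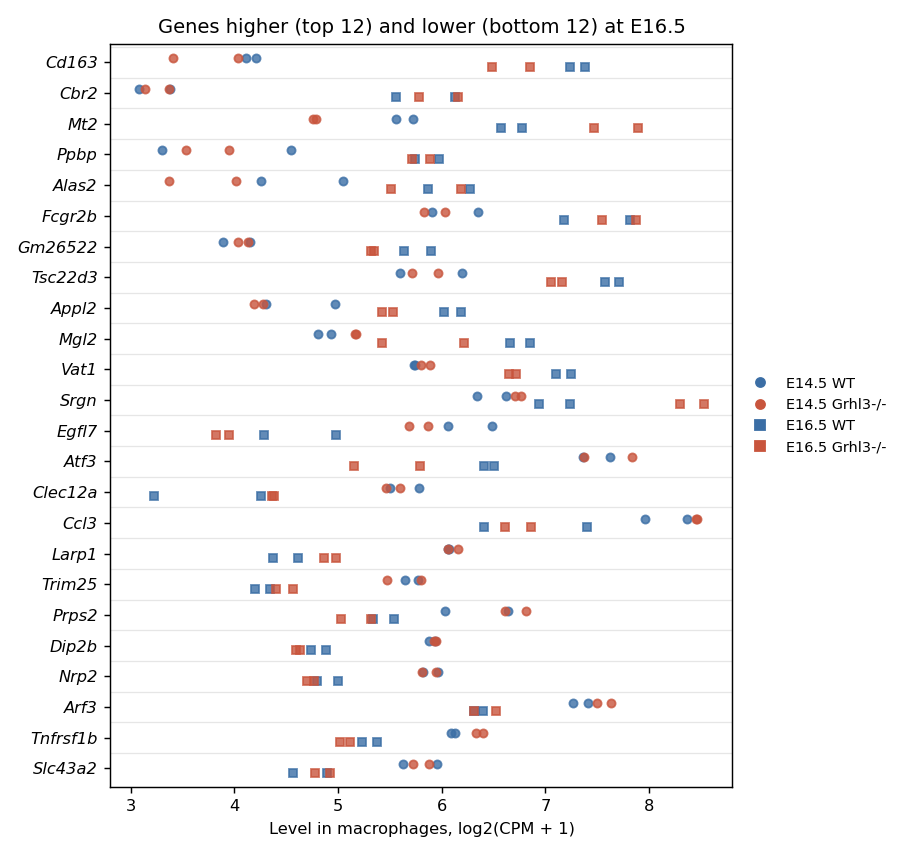
Levels, as log2(CPM + 1), of the 12 genes with the largest rise and the 12 with the largest fall by the rule for named genes, in the macrophages of each library (circles E14.5, squares E16.5, blue WT, red Grhl3-/-). The genes were chosen for groups that do not overlap: Cd163, Cbr2 and Fcgr2b were higher in every E16.5 library than in any E14.5 library, and Egfl7, Clec12a and Ccl3 were lower.

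Among the other genes with the largest differences, Mt2, a metallothionein that binds zinc and copper, rose from 46.1, 51.7, 26.2 and 26.6 CPM to 94.2, 109, 177 and 237 CPM (2.06 ± 0.11). Tsc22d3, the glucocorticoid-induced leucine zipper gene, rose by 1.56 ± 0.10, the platelet basic protein Ppbp by 2.05 ± 0.23, Srgn, the proteoglycan core of secretory granules, by 1.20 ± 0.10, and Appl2, Vat1 and the non-coding Gm26522 by 1.43, 1.20 and 1.60. Alas2, the haem synthesis enzyme of red cell precursors, rose by 1.88 beside a summed level of 12 red cell genes in macrophages that went from 57.4 to 148 per 10000 at E14.5 to 219 to 322 at E16.5. Without the macrophages with the highest doublet scores its difference was 0.98 (edgeR adjusted p = 0.61), and it was also lost with the stricter gate (0.054), among WT libraries alone (0.073) and without members with monocyte markers (0.11). Among the genes that met the rule for named genes, the largest fall was that of Egfl7, best known from endothelium. It went from 65.8, 88.5, 57.4 and 50.4 CPM to 30.7, 18.5, 13.1 and 14.4 CPM (-1.72 ± 0.15). Atf3, a stress transcription factor (-1.53), the semaphorin and VEGF co-receptor Nrp2 (-1.04), the tumour necrosis factor receptor Tnfrsf1b (-1.02) and Tnf itself (-1.24 ± 0.17, but -0.68 with edgeR adjusted p = 0.10 among WT libraries alone) were lower too, as were Larp1 (-1.34), Trim25 (-1.28), Prps2 (-1.20), Dip2b (-1.18), Arf3 (-1.03) and Slc43a2 (-0.99). The chemokine Ccl3 was at 329, 249, 350 and 352 CPM at E14.5 and at 83.7, 168, 96.8 and 115 CPM at E16.5 (-1.42 ± 0.25, edgeR adjusted p = 0.031). Atf3, Tnf and Ccl3 belong to a list of 39 genes known to respond to tissue dissociation. Of this list 9 genes were lower and 9 higher at E16.5, with Fos, Fosb, Jun and Junb among the higher. Over all genes 5.76% were lower and 7.15% higher. The part of tissue handling in these differences was not tested.

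The microglia-type list moved the other way, with 5 of 18 genes lower and 1 higher. Trem2, the lipid-sensing receptor of this list, had 312, 256, 214 and 272 CPM at E14.5 and 92.5, 160, 152 and 118 CPM at E16.5, without overlap (-0.96 ± 0.21, edgeR adjusted p = 0.044). Timd4, the phosphatidylserine receptor of long-lived resident macrophages and the lower gene of the perivascular-type list, had 17.2 to 27.1 and 8.41 to 20.5 CPM (-0.65 ± 0.20, edgeR adjusted p = 0.042). These calls are close to the threshold: without E14.5 WT library 1 the edgeR adjusted p was 0.13 for Trem2, 0.11 for Timd4 and 0.086 for Ccl3, and each was also lost without at least 4 other libraries (at most 0.13, 0.20 and 0.12). None of the 3 passed among WT or Grhl3-/- libraries alone, Trem2 and Ccl3 were lost with the stricter gate (0.080 and 0.069) and without members with monocyte markers (0.064 and 0.080), and Trem2 (0.068) and Timd4 (0.059) without members holding RNA of other cells. The adjusted p of Timd4 was 0.36 with DESeq2. Cx3cr1 was lower in the test over all libraries (-0.41 ± 0.09), but the WT libraries stayed at 289 and 285 and then 277 and 310 CPM, so that among WT libraries alone the difference was 0.08. Of the division genes, 5 of 42 S phase and 7 of 54 G2 and M phase genes were lower and none higher, beside 5.76% of all genes lower. Birc5, which acts at chromosome segregation, had 255 to 316 CPM and then 166 to 266 CPM (-0.33 ± 0.09). This call was lost without E14.5 Grhl3-/- 1, E16.5 WT 2 or E16.5 Grhl3-/- 1 (edgeR adjusted p at most 0.094), without members with monocyte markers (0.16) and among Grhl3-/- libraries alone (-0.020, 0.96). Mki67 had 47.6 to 61.0 and 45.0 to 62.7 CPM (-0.01 ± 0.11, edgeR adjusted p = 0.97).

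Transcripts of other skin cells also moved with age in these sums. The 12 tested keratinocyte genes had a median difference of 1.94 and the 13 muscle genes one of 3.34, although only 3 keratinocyte genes (Krt17, Dsp and Trp63) and 2 muscle genes (Myh3 and Myh8) passed, all higher. Summed over 15 keratinocyte genes, macrophages held 0.720 to 5.53 UMIs per 10000 at E14.5 and 19.2, 19.1, 3.57 and 5.77 at E16.5, and for 14 fibroblast genes 14.3 to 22.0 and 33.2, 52.1, 14.7 and 30.1. Of the 717 genes higher at E16.5, 279 had a lower level in macrophages than in the other cells (Calm4, of the cornifying epidermis, led with 5.04), and of the 578 lower genes 250 did (Crabp1 and Mdk among them). The part of such RNA in the age differences was not tested for each gene. In the resident list 10 genes were higher when macrophages with 50 or more such UMIs per 10000 were left out. Leaving out E14.5 Grhl3-/- library 1 lowered the number of genes that passed, in either direction, to 769, and leaving out E16.5 WT library 2 lowered it to 847.

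Shares of positive cells were compared after every macrophage was thinned to 2000 UMIs. Cd163 was detected in 2.04, 2.41, 0 and 3.24% of macrophages at E14.5 and in 24.3, 24.1, 15.8 and 10.9% at E16.5, a difference of 16.8 percentage points (exact permutation test, n = 4 per age, p = 0.0286, the smallest possible; adjusted p = 0.124 over 13 shares). Trem2 was detected in 30.8 to 39.3% and then 14.4 to 25.7% of macrophages, and Timd4 in 3.06 to 4.32% and then 0.380 to 2.69%, with the same p-values by the exact permutation test. F13a1 went from 68.6 to 83.7% up to 81.8 to 92.8% and Mrc1 from 58.2 to 66.8% to 63.5 to 75.3%, with the ages overlapping. None of the 13 shares passed the adjustment, which this number of libraries could not reach for a family of this size unless several shares had the smallest p. As background, collagen-positive cells were taken with at least 3 of 6 fibroblast genes detected and no UMI of the 6 rule genes. They should lack the genes compared here, and at most 1.20% of them had a UMI of any of these. Cells holding macrophage RNA were removed in advance, so this low background is in part set by the choice of cells. The share of dividing macrophages (at least 3 of 10 markers) was 12.97 to 22.9% at E14.5 and 9.42 to 17.4% at E16.5 (exact permutation test, n = 4 per age, p = 0.229), beside 13 to 23.2% of collagen-positive cells. The mean difference of -4.27 percentage points became -6.33 after thinning to 3000 UMIs and -14.1 without thinning, both at the smallest possible p of the exact permutation test (0.0286). Macrophages under 3000 UMIs are left out of the first, the smallest per library holding 2541 to 3296. Without thinning the depth is unequal, with medians of 10210 to 12444 UMIs at E14.5 and 8147 to 12246.5 at E16.5. The part of depth in the unthinned difference was not tested.

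**Figure D3:**
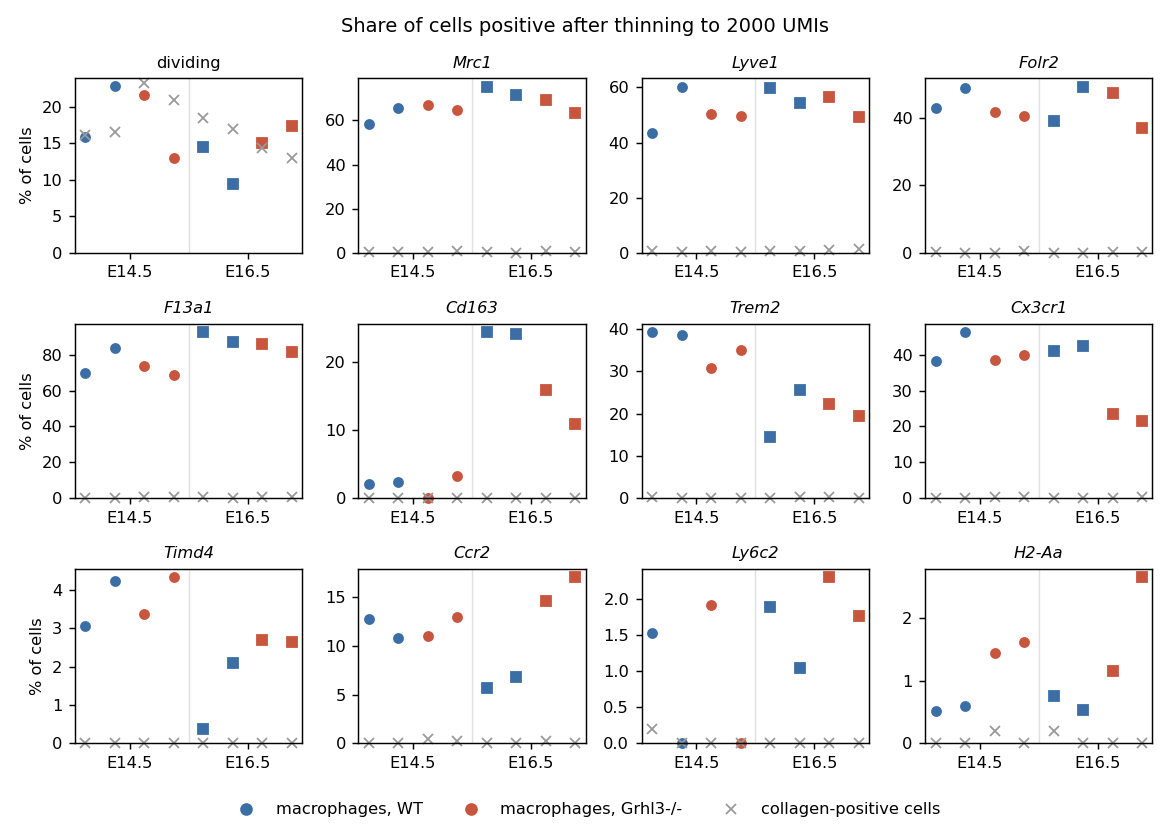
Share (%) of macrophages with at least 1 UMI of each gene after thinning to 2000 UMIs per cell, by library (circles E14.5, squares E16.5), with the share in collagen-positive cells as crosses, and in the first panel the share with at least 3 of 10 division markers. Cd163 lies at 0 to 3.24% in E14.5 and 10.9 to 24.3% in E16.5 libraries, and Trem2 at 30.8 to 39.3% and 14.4 to 25.7%.

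To see which age differences were not shared with the rest of the skin, the age difference in macrophages was tested against that in all other kept cells. It differed for 2.41% of 15426 genes (196 higher and 176 lower in macrophages, edgeR adjusted p under 0.05; 147 and 220 with RLE in place of TMM scaling), and for 242 genes without E14.5 WT library 2 and 247 without E14.5 Grhl3-/- library 1. Tgfbi rose in macrophages and fell in the other cells, from 37.5 to 58.2 CPM down to 23.2 to 31.1 CPM, so that the differences were 1.83 ± 0.16 apart (edgeR adjusted p = 3.2e-05). Appl2 (1.79), Vat1 (1.49), Stard8 (1.49) and Ppbp (2.39) differed in the same direction. Vat1 went from 52.3 to 58.3 CPM up to 99.5 to 151 CPM in macrophages. Egfl7 fell in macrophages and stood at 40.5 to 53.1 and then 53.8 to 67.4 CPM in the other cells (-2.17 ± 0.34, edgeR adjusted p = 0.019). Lilrb4a (-2.37), Clec4n (-1.98), Mpeg1 (-2.03) and AI607873 (-2.55) also differed, but each was at or below 2 CPM in the other cells at E14.5. None of these 4 passed when collagen-positive cells, chosen for having no UMI of the 6 rule genes, stood for the other cells. The differences were then -1.40 for Lilrb4a (edgeR adjusted p = 0.18), -0.18 for Clec4n (0.81), 0.19 for Mpeg1 (0.93) and -2.76 for AI607873 (0.063). AI607873 was also lost without any single E14.5 library or E16.5 Grhl3-/- 1 (at most 0.13), and Egfl7 without E14.5 Grhl3-/- library 2 (0.052) or E16.5 WT library 2 (0.054).

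At E14.5, where the genotype rests on the labels alone, few genes passed between the genotypes in macrophages. Only 0.0299% of genes (3 genes, all higher in Grhl3-/-) passed the edgeR test, while 583 had an unadjusted p under 0.05. Arf5, a small GTPase of vesicle transport, stood at 139 and 152 CPM in WT and 274 and 294 CPM in Grhl3-/- macrophages (0.94 ± 0.11, edgeR adjusted p = 0.00038). It showed the same in the other skin cells (226 and 251 against 432 and 435 CPM) and no such difference at E16.5 (176 and 163 against 160 and 180 CPM). The remaining 2, Gm13305 and Rnaset2b, belong to gene families with near-identical copies, so their reads may be divided between copies.

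At E16.5 some monocyte transcripts were higher in Grhl3-/- macrophages, depending on the gate. In this comparison 1.57% of genes (158) were higher and 1.39% (139) lower in Grhl3-/-, by the edgeR test. Of 14 monocyte genes 4 were higher and none lower, with a median of 0.95. Ccr2, the chemokine receptor by which monocytes leave the marrow, stood at 36.6 and 38.3 CPM in WT and at 81.3 and 112 CPM in Grhl3-/- (1.37 ± 0.17, edgeR adjusted p = 0.00036), beside 68.9 to 83.2 CPM in the E14.5 libraries. Plac8 had 102 and 104 against 191 and 240 CPM (1.06), Ms4a4c 41.6 and 32.9 against 82.2 and 79.3 CPM (1.09 ± 0.18) and Napsa 24.8 and 18.5 against 41.2 and 44.2 CPM (0.95). The chemokine Ccl9 had 188 and 200 against 537 and 417 CPM (1.29 ± 0.13), and the lectin Clec4d, a sensor of microbial glycolipids, had 7.15 and 8.37 against 38.2 and 45.0 CPM (2.42 ± 0.28). Srgn (1.33 ± 0.13), the survival gene Bcl2a1b (1.99 ± 0.33), Thbs1 (1.79), Lgals3 (1.31) and Mt2 (1.03) were higher too. Bcl2a1b is 1 of several near-identical copies, which makes its counts uncertain. The share of macrophages with at least 2 of 5 monocyte markers, counted without thinning, was 16.8, 12.7, 15.9 and 18.4% at E14.5. It was 7.22, 5.76, 18.8 and 22.6% at E16.5, so the E16.5 WT libraries were the low ones. These WT libraries also had the fewest UMIs per macrophage, with medians of 8442 and 8147. The Grhl3-/- libraries of that age had 12246.5 and 10231.5, and those at E14.5 had 10210 to 12444. The part of depth in this share was not tested. Fewer macrophages with monocyte transcripts and less RNA per cell cannot be told apart in the summed counts. None of the 4 monocyte genes passed with the looser gate, with 0.72 for Ccr2 (edgeR adjusted p = 0.060), 0.30 for Plac8 (0.55), 0.68 for Ms4a4c (0.055) and 0.088 for Napsa (0.94), nor did Srgn (0.59, 0.12) or Thbs1 (1.19, 0.19). With the stricter gate the calls for Ccr2 (1.15, 0.13), Plac8 (1.01, 0.13) and Bcl2a1b (1.85, 0.053) were lost. When the macrophages with at least 2 of these markers were left out, none of the 4 monocyte genes passed, with differences of 0.21 for Ccr2 (edgeR adjusted p = 0.80) and -0.018 for Napsa (0.99), but 1.27 for Plac8 (0.50) and 1.05 for Ms4a4c (0.52). Ccr2 and Plac8 are themselves among the markers used to remove cells. Bcl2a1b, Thbs1 and Lgals3 also lost their calls without these macrophages. Without E16.5 WT library 2 the calls for Plac8 (edgeR adjusted p = 0.14), Napsa (0.26), Bcl2a1b (0.095), Thbs1 (0.27) and Lgals3 (0.083) were lost, and without WT library 1 those for Plac8 (0.096), Napsa (0.060), Bcl2a1b (0.13) and Thbs1 (0.17). Leaving out members with RNA of other cells ended the calls for Napsa (edgeR adjusted p = 0.095) and Bcl2a1b (0.075), leaving out the clusters led by such genes ended those for Napsa (0.11) and Plac8 (0.11), and Napsa did not pass with DESeq2 (0.096) or without the highest doublet scores (0.10) either. Napsa was lost without either Grhl3-/- library too (0.074 and 0.10), and Thbs1 without either E14.5 Grhl3-/- library (0.089 and 0.087). Ccl9 and Clec4d passed under every alternative, whereas Mt2 was not followed through the alternatives for this comparison.

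Arg1 (chromosome 10, 24915221 to 24927484, GRCm38), which encodes the arginase that splits arginine into ornithine and urea, stood out in E16.5 Grhl3-/- libraries, in few macrophages and in other skin cells as well. Macrophages had 1, 0, 1 and 1 UMIs at E14.5, 0 and 1 in the E16.5 WT libraries and 754 and 374 in the E16.5 Grhl3-/- libraries. These UMIs came from 14 and 12 cells, with 193 and 141 in the richest cell of each library, and 975 of the 1128 UMIs lay in 15 cells of the monocyte-like cluster 8. The ratio of Grhl3-/- to WT levels was 658, with an exact interval of 118 to 26019 that covers counting error only and not the spread between cells or embryos. The edgeR adjusted p was 0.028, but without any single E14.5 library it was between 0.069 and 0.075, and without E16.5 WT library 1 or 2 it was 0.17 or 0.20. It was 0.19 with the stricter gate, 0.16 in a fit on the 4 E16.5 libraries, 0.073 without members holding RNA of other cells and 0.070 without the clusters led by genes of other cells. In the other skin cells Arg1 was at 0.321 and 0.125 CPM in WT and 3.70 and 6.74 CPM in Grhl3-/- at E16.5, and a difference between macrophages and other cells did not pass (edgeR adjusted p = 0.53).

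Genes of glycolysis were higher in E16.5 Grhl3-/- macrophages. Of 23 genes of the glycolysis and hypoxia list 9 were higher and none lower, with a median of 0.56 against -0.02 over all genes. Over all genes 1.57% were higher and 1.39% lower. Ldha, which turns pyruvate into lactate, stood at 564 and 590 CPM in WT and 1070 and 1045 CPM in Grhl3-/- (0.87 ± 0.10, edgeR adjusted p = 0.00013). Pkm, pyruvate kinase, had 572 and 583 against 1167 and 1121 CPM (0.98 ± 0.10), and Eno1, enolase, 231 and 237 against 410 and 425 CPM (0.83 ± 0.10). At E14.5 the 4 libraries had 877 to 1116 CPM of Ldha, 844 to 1103 CPM of Pkm and 368 to 460 CPM of Eno1, so here too the E16.5 WT libraries were the low pair. Gapdh (0.56), Aldoa (0.57), Tpi1 (0.57), Gpi1 (0.43), the glucose transporter Slc2a1 (1.09) and the mitophagy receptor Bnip3 (0.60) passed as well, while Pgk1 (0.51 ± 0.21, edgeR adjusted p = 0.20) and Hk2 (-0.06 ± 0.27, edgeR adjusted p = 0.94) did not. Ldha, Pkm, Eno1 and Gapdh passed under every alternative, whereas the number of listed genes that passed fell to 4 without E16.5 WT library 1 and to 5 without E16.5 Grhl3-/- library 2. The calls lost without WT library 1 were those of Slc2a1 (edgeR adjusted p = 0.12), Bnip3 (0.27), Aldoa (0.051), Tpi1 (0.059) and Gpi1 (0.17), and those lost without WT library 2 were Slc2a1 (0.096), Tpi1 (0.070) and Gpi1 (0.095). Without Grhl3-/- library 1 they were Bnip3 (0.058), Aldoa (0.067) and Gpi1 (0.16), and without Grhl3-/- library 2 Slc2a1 (0.090), Bnip3 (0.10), Tpi1 (0.053) and Gpi1 (0.053). Slc2a1 did not pass with the looser gate (0.70, edgeR adjusted p = 0.21) or the stricter one (0.79, 0.068), nor without members with monocyte markers (0.85, 0.11). Gpi1 was also lost without members holding RNA of other cells (0.32, edgeR adjusted p = 0.086), without the clusters led by such genes (0.34, 0.068), with thinned libraries (0.40, 0.054) and without the highest doublet scores (0.36, 0.051), and Bnip3 with DESeq2 (0.62, 0.14) and without the highest doublet scores (0.48, 0.072). In the other skin cells Ldha stood at 663 and 783 CPM in WT and 704 and 744 CPM in Grhl3-/- at E16.5. The genotype difference at E16.5 differed from that of the other cells for 3.5% of 16246 genes (251 higher and 318 lower), a comparison added after the data had been seen, which gave 930 genes without E16.5 WT library 1 and 359 without WT library 2, and for 12 of 25 listed glycolysis and hypoxia genes, all higher in macrophages. For Pkm the differences were 1.14 ± 0.10 apart and for Ldha 0.86 ± 0.08 (edgeR adjusted p = 4.2e-07 and 2.6e-09).

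Since these genes moved together, their promoters are shown for the pair whose window holds the letters CACGTG. Searched was ACGTG, the core to which hypoxia-inducible factors bind, on both strands (CACGT on the printed strand), in the 250 bases before and 50 after each gene start (RefSeq, GRCm38.p6). It occurred in 4 of the 9 genes that passed (Slc2a1, Gapdh, Ldha and Bnip3), in 7 of 11 promoters of listed genes that did not, and in 19.7% of 32544 promoters. A match is a description of the letters, not a binding site, and capitals mark the matches. The windows are chr7:46845554-46845853 on the plus strand for Ldha, with 5 matches, and chr7:138909457-138909756 on the minus strand for Bnip3, with 2.
Ldha: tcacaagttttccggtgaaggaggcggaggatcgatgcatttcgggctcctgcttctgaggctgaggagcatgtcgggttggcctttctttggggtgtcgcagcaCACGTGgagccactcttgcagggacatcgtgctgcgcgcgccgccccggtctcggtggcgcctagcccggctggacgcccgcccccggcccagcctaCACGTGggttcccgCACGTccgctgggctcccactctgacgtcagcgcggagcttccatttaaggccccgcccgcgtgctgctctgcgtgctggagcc
Bnip3: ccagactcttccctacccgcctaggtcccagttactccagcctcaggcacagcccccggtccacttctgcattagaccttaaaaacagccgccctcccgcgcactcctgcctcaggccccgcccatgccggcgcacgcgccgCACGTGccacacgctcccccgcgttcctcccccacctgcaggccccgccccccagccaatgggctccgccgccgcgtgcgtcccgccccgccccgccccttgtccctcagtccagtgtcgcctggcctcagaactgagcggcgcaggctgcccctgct

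Immediate-early genes went the opposite way. Of 39 genes of the list of genes known to respond to tissue dissociation, 13 were lower in E16.5 Grhl3-/- macrophages and none higher, with a median of -0.52. Over all genes 1.39% were lower and 1.57% higher. The AP-1 gene Fosb had 186 and 180 CPM in WT and 81.6 and 105 CPM in Grhl3-/- (-0.98 ± 0.13, edgeR adjusted p = 0.00036), and Egr1 had 186 and 191 against 81.0 and 91.6 CPM (-1.13 ± 0.11). Fos (-0.71), Jun (-0.79), Jund (-0.84), Ier2 (-0.77), Nfkbia (-0.77) and Nfkbiz (-1.0) followed. Fos was lost without E16.5 WT library 2 (edgeR adjusted p = 0.095) or Grhl3-/- library 1 (0.051), and Nfkbia without WT library 1 (0.12) or Grhl3-/- library 1 (0.090). With the looser gate Fos did not pass (-0.56, 0.14), nor did Nfkbia without the highest doublet scores (0.054). For Fosb the WT libraries were the high ones, since E14.5 macrophages had 63.5 to 77.3 CPM. In the other skin cells Fosb had 115 and 78.2 CPM in WT and 84.4 and 93.7 CPM in Grhl3-/- at E16.5. The genotype difference in macrophages was apart from theirs for 15 of 39 genes, 14 of them lower, beside 3.5% of all genes in either direction. RNA of other cells moved with the genotype at this age: the 15 keratinocyte genes summed to 19.2 and 19.1 per 10000 in WT macrophages and 3.57 and 5.77 in Grhl3-/-, and the 14 fibroblast genes to 33.2 and 52.1 against 14.7 and 30.1. Their part in the genotype differences was not tested directly. Of the 139 genes lower in Grhl3-/-, 68 had a lower level in macrophages than in the other cells, and of the 158 higher genes 15 did. Without the macrophages that held 50 or more UMIs of other cells per 10000, 18 stress genes were lower and 8 glycolysis and hypoxia genes higher.

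Some genes of the resident macrophage lists were lower in E16.5 Grhl3-/- macrophages, with 5 of 19 perivascular-type genes lower and none higher. Over all genes 1.39% were lower. Sepp1, the secreted selenium carrier, had 2511 and 3201 CPM in WT and 1680 and 1515 CPM in Grhl3-/- (-0.84 ± 0.11, edgeR adjusted p = 0.00077). Cx3cr1, the fractalkine receptor, had 277 and 310 against 170 and 130 CPM (-0.97 ± 0.13), and after thinning it was detected in 41.1 and 42.4% of WT and 23.5 and 21.5% of Grhl3-/- macrophages. Csf1r, a gene of the selection rule and so a description only, had 781 and 887 against 569 and 449 CPM. Cd163 was lower (-0.65 ± 0.14, edgeR adjusted p = 0.018), but the call was lost without E16.5 WT library 1, WT library 2 or Grhl3-/- library 2 (edgeR adjusted p = 0.17, 0.084 and 0.15). Pf4 (-0.51), the growth factor Igf1 (-0.78) and Blvrb (-0.52) were lower, and Mrc1 (-0.17, edgeR adjusted p = 0.41), Lyve1 (0.58, edgeR adjusted p = 0.44) and Trem2 (0.11, edgeR adjusted p = 0.90) did not pass. Lyve1 was higher in Grhl3-/-, unlike the genes of the resident list that passed. Its difference was of the same size without E14.5 WT library 1 (0.59) or E14.5 WT library 2 (0.58). Lyve1 passed in a fit on the 4 E16.5 libraries (0.58, edgeR adjusted p = 0.046). Cd163 did not pass with DESeq2 (-0.62, adjusted p = 0.12) or without members with monocyte markers (-0.49, 0.072), nor Pf4 in the fit on the 4 E16.5 libraries (0.070) or without those members (0.052). With the looser gate Cd163 (-0.48, 0.080), Pf4 (-0.35, 0.25) and Blvrb (-0.37, 0.077) did not pass. Other genes with large falls were Ypel3, with 111 and 144 against 51.6 and 51.2 CPM (-1.30 ± 0.14), and Rapsn (-1.22). Against 297 genes that passed at E16.5 in all, 78 did without E16.5 WT library 2, 187 without Grhl3-/- library 1 and 196 without WT library 1. Of the named calls, those for Igf1 (edgeR adjusted p = 0.062), Rapsn (0.062), Blvrb (0.10) and Pf4 (0.20) were lost without WT library 2, Blvrb (0.081) and Pf4 (0.16) also without WT library 1, and Blvrb (0.18) and Pf4 (0.20) without Grhl3-/- library 2. Pf4 was lost without either E14.5 WT library as well (0.059 and 0.062), while Sepp1, Cx3cr1 and Ypel3 passed under every alternative.

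**Figure D4:**
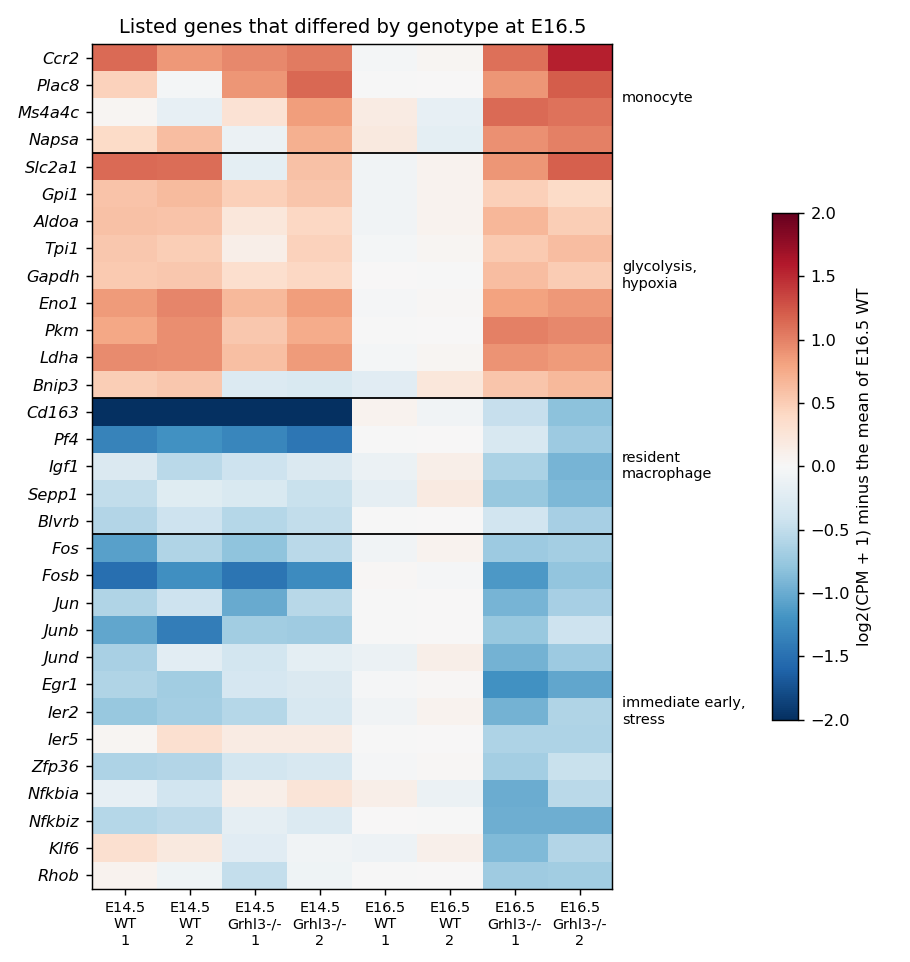
Levels of genes from the monocyte, glycolysis, immediate-early and resident lists in the macrophages of each library, as the difference of log2(CPM + 1) from the E16.5 WT mean, with colours ending at ±2. The genes are those of each list that passed at E16.5. Ldha, Pkm and Eno1 are lower in the 2 E16.5 WT libraries than in the other 6, and Cd163 at E14.5 lies beyond the end of the scale.

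Over both ages, 0.319% of genes (14 higher and 18 lower in Grhl3-/-) passed the edgeR test. The number lay between 17, without E16.5 WT library 2, and 73, without E14.5 WT library 1. Plac8 (0.91 ± 0.13), Ms4a4c (0.86 ± 0.13) and Actb (0.43 ± 0.06), which encodes beta-actin, were higher. Actb stood at 6358 and 7155 against 9120 and 9512 CPM at E14.5 and at 8253 and 7903 against 10147 and 11760 CPM at E16.5, so the genotypes did not overlap at either age. The histone genes Hist3h2a (-0.78 ± 0.10) and Hist1h2bc (-0.72 ± 0.10) and the antioxidant Gpx3 (-0.49 ± 0.09) were lower. Rhob (-0.50) was lower as well. Plac8 was lost without either E14.5 Grhl3-/- library (edgeR adjusted p = 0.071 and 0.10), without either E16.5 WT library (0.079 and 0.12), with the stricter gate (0.19) and with the looser gate (0.51, 0.36), and Ms4a4c with the looser gate (0.60, 0.12). Both were lost without members with monocyte markers (Plac8 1.20, edgeR adjusted p = 0.57, and Ms4a4c 1.08, 0.55), and Plac8 also without the clusters led by genes of other cells (0.76, 0.13). Gpx3 was lost without E14.5 WT 1, either E14.5 Grhl3-/- library, E16.5 WT 2 or E16.5 Grhl3-/- 2 (at most 0.14) and with the looser gate (0.14), and Rhob without E14.5 Grhl3-/- library 1 (0.071) or E16.5 WT library 2 (0.056). Actb, Hist3h2a and Hist1h2bc passed under every alternative.

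The genotype difference itself differed between E14.5 and E16.5 for 0.817% of genes (44 more positive and 38 more negative at E16.5, edgeR adjusted p under 0.05), and for 30 genes without E14.5 Grhl3-/- library 2 and 48 without E16.5 WT library 2. Mt2 had 46.1 and 51.7 CPM in WT and 26.2 and 26.6 CPM in Grhl3-/- at E14.5, and 94.2 and 109 against 177 and 237 CPM at E16.5, so the genotypes were ordered oppositely (1.94 ± 0.22, edgeR adjusted p = 0.00040). Bnip3 showed the same reversal, with 74.3 and 76.9 against 43.2 and 42.5 CPM and then 44.6 and 61.6 against 77.3 and 82.6 CPM (1.45 ± 0.21). In the glycolysis and hypoxia list 8 of 23 genes were more positive at E16.5 and in the dissociation list 9 of 39 were more negative. The age differences of Ldha and Eno1 in all 8 libraries (-0.34 and -0.36) had the opposite sign among Grhl3-/- libraries alone (0.21 and 0.15).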

How the data were processed

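Back skin of Grhl3-/- and WT mouse embryos was dissociated, and per the labels single cells were profiled by droplet-based sequencing of transcript 3′ ends. The authors deposited, for each library, a filtered matrix of UMI counts per gene and cell, with no further normalisation. The submitters' processing notes name Cell Ranger (version 1.3.1) and mm10. Embryonic cells with 600 to 4800 genes, and P0 cells with 900 to 7700, were kept if they had at most 10% mitochondrial UMIs, and macrophages were gated on the 6 genes as described. The members and gene lists were chosen with earlier results of these data known.

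UMI counts of the macrophages were summed per library, which is the unit of replication. Genes passing filterByExpr were tested with edgeR 4.0.16 (TMM, robust quasi-likelihood, Benjamini-Hochberg) in R 4.3.3, with a design of 4 groups over 8 libraries for age, for genotype at each age and over both, and for their interaction. Differences from all other kept cells used 16 sums with the library as a block. Shares were compared by exact permutation tests in SciPy 1.17.1. Cells were clustered with scanpy 1.11.5. Doublets were scored with Scrublet, and the 5% of kept cells of each library with the highest scores were left out only as an alternative, which removed 5.61 to 9.04% of macrophages at E14.5 and 9.62 to 17.1% at E16.5. On simulated counts at 9778 genes, 98% of genes changed by 1 or by 2 on the log2 scale between the ages were recovered, with 15 false calls. For the age difference against other cells 90% and 99% were recovered, with 15 false calls. The changed genes were drawn only from those at higher levels, so genes at low levels and the genotype comparisons are not covered.

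Named genes are, for age, up to 12 per direction with the largest difference among those that passed, had a mean of at least 5 on the log2 CPM scale, did not overlap between groups and were no lower than in the other cells. The other comparisons took up to 5 per direction, up to 3 more that were lower than in the other cells are named, and genes of the lists were added. Each library is 1 embryo by the study's methods, and p-values measure the spread between these libraries. Libraries held 57270821 to 79416872 UMIs. Gene coordinates were taken from GENCODE annotation of GRCm38 and matched for 810 of 810 listed genes. Alternatives concerned the gate, mitochondrial limit, doublets, RNA of other cells, low-count filter, normalisation, DESeq2, depth, a replicate block, single libraries and, after the data had been seen, the clusters led by genes of other cells, macrophages with monocyte markers and collagen-positive cells as the reference. Some genes that met these rules are not reported here.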

Additional observations from a re-analysis of the deposited data

Results flagged for a closer look

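The genotype difference itself differed between E14.5 and E16.5 by the edgeR interaction test for the following named genes, with the difference at E16.5 minus that at E14.5 on the log2 scale. It was 2.42 ± 0.44 for Bcl2a1b (adjusted p = 0.0496), 1.94 ± 0.22 for Mt2 (0.00040), 1.45 ± 0.21 for Bnip3 (0.0027), 1.40 ± 0.24 for Ccr2 (0.0074) and 1.305 ± 0.22 for Nqo2, a quinone reductase (0.0074). It was -1.58 ± 0.27 for Rapsn (0.0074), -1.2997 ± 0.19 for Nfkbiz (0.0030), -1.26 ± 0.20 for Ypel3 (0.0058), -1.20 ± 0.21 for Nfkbia (0.018) and -1.05 ± 0.20 for Junb (0.018). Nqo2 stood at 50.6 and 64.3 CPM in WT and 43.2 and 49.5 CPM in Grhl3-/- at E14.5, and at 33.2 and 37.7 against 73.9 and 65.1 CPM at E16.5. Leaving out any single library other than the E16.5 Grhl3-/- pair ended this call for Bcl2a1b (adjusted p from 0.058 to 0.20). Junb was lost without any of 5 single libraries (both E14.5 Grhl3-/-, both E16.5 WT and E16.5 Grhl3-/- 1, at most 0.12), Nfkbia without either E14.5 Grhl3-/- library or E16.5 WT library 1 (at most 0.14), Ccr2 without either E14.5 Grhl3-/- library (0.053 and 0.065) and with the stricter (0.27) or looser gate (0.33), and Rapsn without E16.5 WT library 2 (0.051). Nfkbiz (0.073) and Nqo2 (0.062) were lost with thinned libraries. Ccr2 and Bcl2a1b were also lost without members with monocyte markers, and Ccr2 without the clusters led by genes of other cells. Bcl2a1b was lost with the stricter gate, the looser gate and without members holding RNA of other cells as well. Nfkbia was also lost without the highest doublet scores. Mt2, Bnip3 and Ypel3 passed under every alternative.

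A library that stood apart from the other 3 of its age was found for 3 of 76 gene and age groups examined by Dixon's test, where chance alone gives about 1 in 20. Appl2 had 30.3 CPM in E14.5 WT library 2 and 17.3 to 18.8 CPM in the others, Clec12a had 8.37 CPM in E16.5 WT library 2 and 18.1 to 19.9 CPM in the others, and Larp1 had 70.3 CPM in E14.5 Grhl3-/- library 1 and 65.8 to 66.1 CPM in the others.

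The same 6-gene gate, applied to cells with 900 to 7700 genes in the 5 libraries of newborn (P0) epidermis, which enter no comparison above, found 2276 cells. Age and tissue cannot be told apart there. These cells had Mrc1 at 46.5 to 111 CPM and Pf4 at 74.2 to 316 CPM, below every embryonic library, with Cd163 at 0 to 0.235 CPM and Lyve1 at 0 to 0.596 CPM. Cd207 was present at 4.70 to 33.7 CPM.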

How the results depend on the processing

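The counts of genes moved with the processing as follows, and the causes were not tested unless fewer libraries or genes entered by construction. The 1295 genes that changed with age became 550 with DESeq2 and 457 among Grhl3-/- libraries alone, and 769 to 1216 when single libraries were left out. The 3 genes of the E14.5 genotype comparison became 9 with the stricter gate, 10 with the looser gate, 6 without the highest doublet scores, 6 without members holding RNA of other cells, 6 without the clusters led by genes of other cells, 10 with DESeq2, 58 without the low-count filter, 11 in a fit on the 4 libraries of the age and 4 to 11 without single libraries. The 297 genes at E16.5 became 512 with the stricter gate, 184 with DESeq2, 890 without the low-count filter and 78 to 421 without single libraries. The 32 genes over both ages became 72 with the stricter gate, 21 with the looser gate, 64 without the highest doublet scores, 77 without members holding RNA of other cells, 69 without the clusters led by such genes, 52 with DESeq2, 295 without the low-count filter, 17 without members with monocyte markers and 17 to 73 without single libraries. The 82 genes whose genotype difference differed between ages became 145 with the stricter gate, 356 without the low-count filter, 49 with libraries thinned to the smallest, 54 without members with monocyte markers and 30 to 111 without single libraries. Differences from the other skin cells were called for 242 to 416 genes by age and for 359 to 930 by genotype at E16.5 without single libraries. The difference in the dividing share between ages was -4.27 percentage points at 2000 UMIs per cell, -6.33 after thinning to 3000 UMIs and -14.1 without thinning (exact permutation p = 0.0286 for the last 2 settings), and -6.06 to -2.73 without single libraries. Without thinning, depth per macrophage was unequal between the ages.

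Deviations of same-numbered libraries from the means of their groups, over 3968 genes, correlated between -0.091 and 0.246 across pairs of groups. The highest value was that of E14.5 WT with E14.5 Grhl3-/-. Whether the replicate numbers pair the libraries is not settled by these values, and no pairing was assumed in the main fits. With the number as a replicate block, the E14.5 count was 5, the E16.5 count 361 and the age count 1276. With the block the calls for Plac8 (edgeR adjusted p = 0.061) and Gpx3 (0.051) over both ages, Trem2 (0.084), Ccl3 (0.061) and Timd4 (0.05002) with age and Thbs1 (0.072) at E16.5 were lost.

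Some differences changed sign under an alternative. The Folr2 share was 1.34 points higher at E16.5 with thinning to 3000 UMIs, 0.851 with the stricter gate and 1.33 when at least 2 UMIs were asked (-2.33 to 1.72 without single libraries). The Ccr2 share was 1.20 points higher with at least 2 UMIs (-2.87 to 0.920). The H2-Aa share was -0.121 without thinning and -0.113 with the stricter gate (-0.232 to 0.476), and the H2-Aa level -0.65 with the stricter gate (-0.29 to 1.08). Lyve1 with age was 0.0100 without members holding RNA of other cells, 0.029 without the clusters led by such genes and 0.29 among Grhl3-/- libraries (-0.24 to 0.20). Mki67 was 0.051 with the stricter gate, 0.042 with thinned libraries, 0.23 among Grhl3-/- libraries and 0.10 without members with monocyte markers (-0.080 to 0.065). Cx3cr1 was 0.079 among WT libraries, and Ldha and Eno1 0.21 and 0.15 among Grhl3-/- libraries. At E16.5 Napsa was -0.018 without members with monocyte markers, and Trem2 lay between -0.22 and 0.54 without single libraries. Mpeg1 against collagen-positive cells was 0.19. Of the named genes that passed, 34 of 62 for age and 17 of 47 for the E16.5 genotype comparison kept their call under every alternative, as did 3 of 10 for genotype over both ages, 3 of 16 for the difference between ages and 8 of 16 for the comparison with other cells. Genes at a few UMIs per library, such as Arg1 in WT, are limited by depth.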
